A study of Homo sapiens with 8 samples.

Results

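Decitabine was compared with its vehicle, DMSO, in HL-60, an established human promyelocytic leukaemia cell line. Decitabine is a deoxycytidine analogue that cells phosphorylate and build into replicating DNA, where it traps DNA methyltransferases; as the cells divide, the methyl groups on CG dinucleotides are not fully copied. Promoter methylation normally keeps germline genes and many lineage genes silent, so these are the classes most often followed after such treatment. HL-60 cells sit at the promyelocyte stage of granulocyte development and carry the granule enzymes of that stage.

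The 4 libraries compared were 2 DMSO and 2 decitabine libraries of the 8 in the series, and every gene with a mean normalised value of 10 or more over all 8 was tested, which left 17534 of 60240 genes. Cells of the wild-type line were seeded at 100000 per mL in duplicate wells and collected 72 h after the first dose. Decitabine (100 nM) was dosed daily from day 0 to day 2, which made 3 doses, and the control cells received DMSO. The other 4 libraries were cells given RG3039, an inhibitor of the decapping scavenger enzyme DCPS, once at 2 µM on day 0, and cells given RG3039 with decitabine, called the combination below. The libraries hold 3′ ends of transcripts, sequenced as single reads of 50 bases, so a value stands for transcript ends counted per gene and not for gene length. Since the duplicates are wells of one line, p-values measure the spread between these wells.

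Values are the authors' normalised read counts, which are scaled between libraries and are not whole numbers. Their totals ran from 27926752 to 32309929 in the 4 libraries compared, and the spacing of low values corresponds to about 20711798 to 40114460 reads. Mitochondrial transcripts made up 11.01% and 10.36% of the DMSO totals and 12.51% and 11.04% of the decitabine totals. Tests were made with limma on log2(value + 1), with 1 mean for each of the 4 groups and Benjamini-Hochberg adjustment over all genes tested, and a gene is called at an adjusted p under 0.05. All fold changes are differences on that scale, which understates the change of genes near 0. The 3 genes just inside the mean of 10 were CTF1, AL162424.1 and CHD5, with means from 10.002 to 10.008, and the 3 just outside were BEND7, AC079331.1 and AC093766.1, with means from 9.984 to 9.997.

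All 12 transcripts chosen as marks of HL-60 were present in both groups. MPO, the myeloperoxidase of azurophil granules, read 130999.5 and 165579.5 in DMSO and 121481 and 158077 in decitabine libraries, and its log2 fold change was -0.09 ± 0.18 (SE; adjusted p = 0.838). ELANE, the neutrophil elastase, read 12161 and 13520.3 against 13421 and 12908. For these 2 genes the treated libraries overlapped the control range. Of the 12, 9 had positive log2 fold changes (median 0.35). CTSG and CEBPE, described below, were the 2 called higher, against 1.74% over all genes tested. Each of these 2 calls was lost in at least 1 fit that left out a library.

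Decitabine was followed mainly by higher values. Of the 17534 genes, 376 were called, which is 2.14% of those tested. The calls split into 305 higher genes (1.74%) and 71 lower genes (0.405%). Counts of called members in the gene lists below stand against these shares. A member with a DMSO mean under 10 passed the filter only through other libraries. A count that holds such members cannot be read plainly against these shares. The higher genes changed more: their median log2 fold change was 2.01 and 101 of them rose at least 8-fold, whereas the lower genes had a median of -0.88 and 2 of them fell at least 8-fold. The median over all genes tested was 0.01, and 3130 genes (17.9%) had an unadjusted p under 0.05. In all 376 called genes the 2 decitabine libraries lay on 1 side of the 2 DMSO libraries, a separation that 46.8% of all tested genes also show with 2 libraries a group.

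The calls were spread unevenly over starting levels. Among the 136 tested genes with a DMSO mean under 1, 31 rose and none fell, and among the 1065 with a DMSO mean of 1 to under 10, 46 rose and none fell. These classes passed the filter only through libraries other than DMSO, so a gene in them had to be high elsewhere, and their shares cannot be read against the rest. In the class of 1000 to under 10000 the balance was 28 higher against 42 lower of 3984 genes, and 51 of the 71 lower genes had a DMSO mean of 1000 or more. The median SE of the log2 fold change was 0.69 at a mean of 10 to under 100. At a mean of 1000 or more it was 0.17, so small changes pass the test more easily at high levels. The number of calls depended strongly on single libraries: 86 genes were called without decitabine replicate 1, 79 without decitabine replicate 2, 145 without DMSO replicate 2 and 495 without DMSO replicate 1. Libraries outside the comparison counted too, through the shared estimate of spread, with 162 genes called without combination replicate 1 and 156 without combination replicate 2. Such a fit takes the spread of the library left alone from the remaining groups. The call was kept without each of the 4 libraries for 55 genes, 54 of them higher and 1, GNL3L, lower, and those genes lead the account below.

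**Figure D1:**
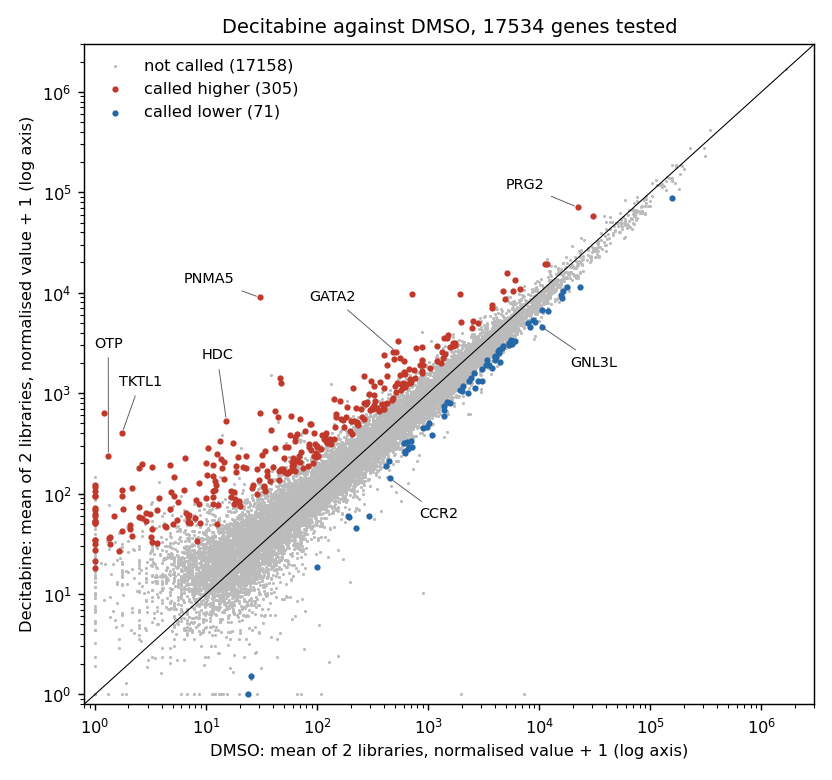
Mean normalised value + 1 of the 2 DMSO libraries (x axis, log) against that of the 2 decitabine libraries (y axis, log) for the 17534 genes tested, with the line of equal values. The 305 genes called higher spread far above the line at low DMSO levels, and the 71 called lower lie close below it, most of them at DMSO values above 1000.

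PNMA5 gave the smallest p of all genes tested. It belongs to the paraneoplastic Ma antigen genes, which derive from retrotransposon gag sequences and are normally read in brain and testis, and it lies at chrX:152988824-152994127 on the minus strand (hg38, GENCODE 29). Its values were 19.7 and 39.2 in DMSO and 7735 and 10197 in decitabine, a log2 fold change of 8.27 ± 0.32 (adjusted p = 6.27e-06). Every treated library exceeded every control library more than 100-fold. Of the 13 tested genes of the PNMA and RTL families, 3 were called higher and none lower, against 1.74% higher over all genes. Of those 3, PNMA6E had a DMSO mean under 10 and passed the filter only through other libraries, so the count cannot be read plainly against that share. The list median was 0.92, which was 1.56 without DMSO replicate 1 and 0.28 without DMSO replicate 2. PNMA6E went from 0 and 3.33 to 177 and 216, and RTL8C, from a domesticated retrotransposon, from 22.7 and 12.1 to 86.3 and 88.4. Both were higher in each treated library, but without either decitabine library PNMA5 was the 1 member still called.

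Cancer-testis genes are read in the male germline and in tumours and are mostly silent elsewhere. Of 75 listed, 48 were above 0 in some library and 21 passed the filter. Of those 21, 7 were called higher and none lower, against 1.74% higher over all genes. The median log2 fold change was 1.68, or 1.11 without the 5 genes listed at 0 in both DMSO libraries. Those 5 passed the filter only through other libraries and could not fall, so the count of 7 cannot be read plainly against that share. The count was 4 without decitabine replicate 1, 3 without decitabine replicate 2 and 5 without DMSO replicate 2. In DMSO replicate 2, 9 of the 21 were under 0.333 of DMSO replicate 1, against 5.58% of all genes tested, and the median was 2.64 without DMSO replicate 1 and 1.45 without DMSO replicate 2. TKTL1, a transketolase-like gene at chrX:154295671-154330350, read 1.51 and 0 in DMSO and 380.2 and 423 in decitabine (log2 fold change 7.99 ± 0.73, adjusted p = 7.47e-04). MAGEB2, a melanoma antigen family member at chrX:30215560-30220089, was already present at 62.8 and 51.3 and rose to 632 and 548 (3.35 ± 0.32, adjusted p = 8.97e-04). For both genes the lowest treated library stood well above the highest control, and both calls held without each library.

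Several members were listed at 0 in both DMSO libraries, so no fold is given for them. TUBA3D, a testis alpha-tubulin with a near-identical copy that the counting may split, stood at 0 in each control and at 127 and 106 with decitabine (adjusted p = 0.00173). VCX read 36.4 and 68.6 and PAGE2B 56.2 and 42.5 against 0 in both controls; both belong to X-linked families with near-identical copies. PIWIL4, a PIWI protein that binds small RNAs, differed from these in its level, reading 246 and 338 in DMSO and 853 and 1106 after treatment (1.75 ± 0.24, adjusted p = 0.00734), and its call was lost without decitabine replicate 2 (adjusted p = 0.0875). A gene at 0 in both DMSO libraries cannot fall and passed the filter only through other libraries, so its direction was fixed in advance. Over all genes tested, 75 were listed at 0 in both DMSO libraries and 19 of them were called. FMR1NB (0 and 0 against 75.3 and 113) and GPAT2, a mitochondrial acyltransferase of the germline (87.6 and 124), were among them. TUBA3D kept its call without each of the 4 libraries, while VCX, PAGE2B, FMR1NB and GPAT2 did not.

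Of 28 germline and meiosis genes tested, 3 (MAEL, TDRD9 and DAZL) were called higher and none lower, against 1.74% higher over all genes. TDRD9 and DAZL had DMSO means under 10 and passed the filter only through other libraries, so the count cannot be read plainly against that share. The list median was 0.57, which was 1.06 without DMSO replicate 1 and 0.38 without DMSO replicate 2. MAEL, of the piRNA pathway that silences transposons in germ cells, read 13.3 and 7.98 in DMSO and 188 and 194 in decitabine (4.08 ± 0.42, adjusted p = 0.00157). TDRD9, a helicase of the same pathway, read 2.14 and 1.22 against 72.2 and 39.4 (4.37 ± 0.51, adjusted p = 0.00279). DAZL, an RNA-binding protein needed by germ cells, read 0 and 3.02 against 94.4 and 49.9 and lost its call without DMSO replicate 1 (adjusted p = 0.0646) and without decitabine replicate 1 (0.207) or 2 (0.137). Other piRNA genes of the list were not called: PIWIL1 had -0.48 ± 0.82, PIWIL2 0.54 ± 0.26, TDRD1 0.37 ± 0.68, GTSF1 0.05 ± 0.18, HENMT1 0.21 ± 0.30, TDRD6 2.27 ± 1.27 and TDRD12 4.18 ± 1.43. GCNA, a germ cell nuclear protein named here after its values were seen, read 60.6 and 30.2 against 1364 and 1462 (5.01 ± 0.33, adjusted p = 1.90e-04).

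**Figure D2:**
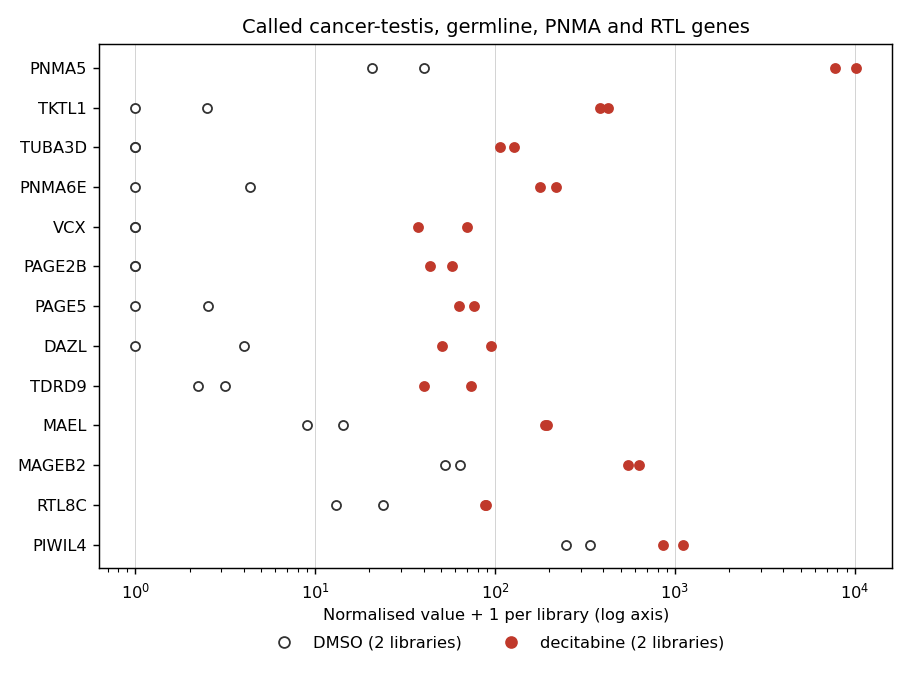
Normalised value + 1 in each library (log axis) for the 13 called genes of the cancer-testis, germline and PNMA or RTL lists, open circles for the 2 DMSO and filled circles for the 2 decitabine libraries. Values of 0 sit at 1. In every row both filled circles lie to the right of both open ones, and PNMA5 has the highest treated values.

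Chromosome X, where many cancer-testis families lie, held 26 of the 305 higher genes among 558 tested, which is 4.66% of its genes against 1.74% overall. It held 8.52% of higher calls and 3.18% of tested genes. This comparison of chromosomes was made after the values were seen and has no test. The calls included TKTL1, FMR1NB and PNMA6E, whose DMSO means were under 10 and which passed the filter only through other libraries. Such genes were not set apart, so the 4.66% cannot be read plainly against the 1.74%.

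The promoters below are shown because CG dinucleotides are the sites that DNA methyltransferases act on. They come from the RefSeq promoter table (GRCh38.p14), 5′ to 3′, from the 250 bases before the first listed start, leaving out bases that GENCODE 29 places in an exon, with every CG in capitals. PNMA5 and TKTL1 were taken by the naming rule, as higher genes with the largest changes that kept their call (COL14A1, with a larger change, is left out by the rule for its chromosome); MAEL and GNL3L, the 1 lower gene that kept its call, were chosen after their values were seen. The PNMA5 stretch is chrX:152994128-152994366 (minus strand), TKTL1 chrX:154295545-154295670 (plus), MAEL chr1:166975483-166975581 (plus) and GNL3L chrX:54529969-54530210 (plus).
PNMA5: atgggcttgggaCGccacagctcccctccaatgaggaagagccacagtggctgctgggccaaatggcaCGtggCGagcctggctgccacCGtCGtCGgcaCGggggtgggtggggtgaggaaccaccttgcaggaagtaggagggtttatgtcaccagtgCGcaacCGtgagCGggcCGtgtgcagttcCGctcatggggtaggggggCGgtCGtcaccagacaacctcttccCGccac
TKTL1: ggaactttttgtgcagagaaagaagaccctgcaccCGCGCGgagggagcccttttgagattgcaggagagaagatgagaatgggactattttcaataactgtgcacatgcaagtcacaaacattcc
MAEL: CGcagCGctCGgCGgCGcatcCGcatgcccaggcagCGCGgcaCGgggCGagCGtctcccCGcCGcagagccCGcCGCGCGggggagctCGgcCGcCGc
GNL3L: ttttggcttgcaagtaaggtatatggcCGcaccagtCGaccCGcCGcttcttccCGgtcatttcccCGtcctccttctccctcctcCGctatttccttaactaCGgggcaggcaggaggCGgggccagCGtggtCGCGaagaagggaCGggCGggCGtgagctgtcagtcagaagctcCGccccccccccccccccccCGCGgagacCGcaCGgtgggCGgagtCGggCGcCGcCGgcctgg
The whole 250-base windows held 16 CG in PNMA5, 13 in TKTL1, 51 in MAEL and 26 in GNL3L. Over 27305 promoters, 1 per gene, the median window held 11 CG, with quartiles of 3 and 23. The OTP window, the third taken by the rule, held 20 CG and that of HDC 4; both lie wholly in exons of their genes in GENCODE 29 and are not printed. HDC was also chosen after its values were seen. The PNMA5, TKTL1, OTP and HDC counts lie within the quartiles. The counts of MAEL, a higher gene, and GNL3L, a lower gene, lie above them. The table holds 239 of the 376 called genes (63.6%), under the 80% needed, so CG content over all called genes was not compared. The sequence CACGTG, which reads the same on both strands, occurs once in the PNMA5 stretch and in 6.49% of all windows. No methylation was measured in these samples.

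Genes of eosinophils, basophils and mast cells, the effector cells of allergy and parasite defence, were higher with decitabine. Of 24 tested, 14 were called higher and none lower, against 1.74% higher over all genes, and the median log2 fold change was 1.68 against 0.01. The count was 6 without decitabine replicate 1, 5 without decitabine replicate 2 and 10 without either DMSO library. The summed level of the list was 30533 and 37439.6 in DMSO and 91015 and 111121 in decitabine libraries, so the ranges did not overlap. In bulk RNA, more cells of a type and more RNA per cell cannot be told apart.

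Granule proteins made up most of that sum. PRG2, the eosinophil major basic protein (chr11:57386794-57390657), was among the most abundant transcripts of the line already, at 20683 and 23688, and rose to 63797 and 77821 (1.67 ± 0.14, adjusted p = 5.44e-04). EPX, the eosinophil peroxidase (chr17:58192737-58205174), rose from 393 and 666 to 2836 and 3742 (2.67 ± 0.26, adjusted p = 0.00115). CLC, the Charcot-Leyden crystal protein, rose from 418 and 423 to 1443 and 1542 (1.82 ± 0.20, adjusted p = 0.00192). All 3 kept their calls without each library, and in each the lowest treated value was more than 2-fold the highest control. The granule ribonucleases RNASE2 and RNASE3 rose by 1.19 ± 0.25 and 1.45 ± 0.18, and their calls were lost in at least 1 fit that left out a library.

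Receptors and mast cell or basophil enzymes rose from far lower levels. HDC, histidine decarboxylase, which makes histamine, read 12.9 and 15.5 in DMSO and 444 and 617 in decitabine (5.11 ± 0.38, adjusted p = 2.70e-04). CPA3, the mast cell carboxypeptidase, read 9.84 and 12.1 against 121 and 143 (3.48 ± 0.48, adjusted p = 0.0076). Of receptors, IL5RA, the interleukin-5 receptor alpha chain, read 10.01 and 11.2 against 92.3 and 92.2, and IL1RL1, the interleukin-33 receptor, 10.5 and 15.4 against 183 and 175. HDC kept its call without each of the 4 libraries, while CPA3, IL5RA and IL1RL1 lost theirs in at least 1 of those fits.

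Transcription factors of this branch moved as well. GATA2 (chr3:128479427-128493185), which works in stem cells, mast cells and basophils, read 555 and 466 in DMSO and 2611 and 2581 in decitabine (2.35 ± 0.17, adjusted p = 2.35e-04), and its call held without each library. GATA1, shared with the erythroid and eosinophil lineages, read 49.9 and 11.8 against 205 and 176 (2.90 ± 0.60, adjusted p = 0.0436). Its 2 control libraries differed about 4-fold, and the adjusted p ran from 0.00892 without DMSO replicate 1 to 0.191 without decitabine replicate 1. CEBPE, a factor of late granulocyte development, rose from 2368 and 2700.4 to 4731 and 5676 (1.03 ± 0.17, adjusted p = 0.0167) and lost its call without any 1 of the 4 libraries. Other members did not pass the test: KIT, the stem cell factor receptor of mast cells, read 647 and 619 against 441 and 499.9 (-0.43 ± 0.21, adjusted p = 0.316), and MS4A2, the beta chain of the IgE receptor, 134 and 72.9 against 109 and 73.8, with overlapping libraries.

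**Figure D3:**
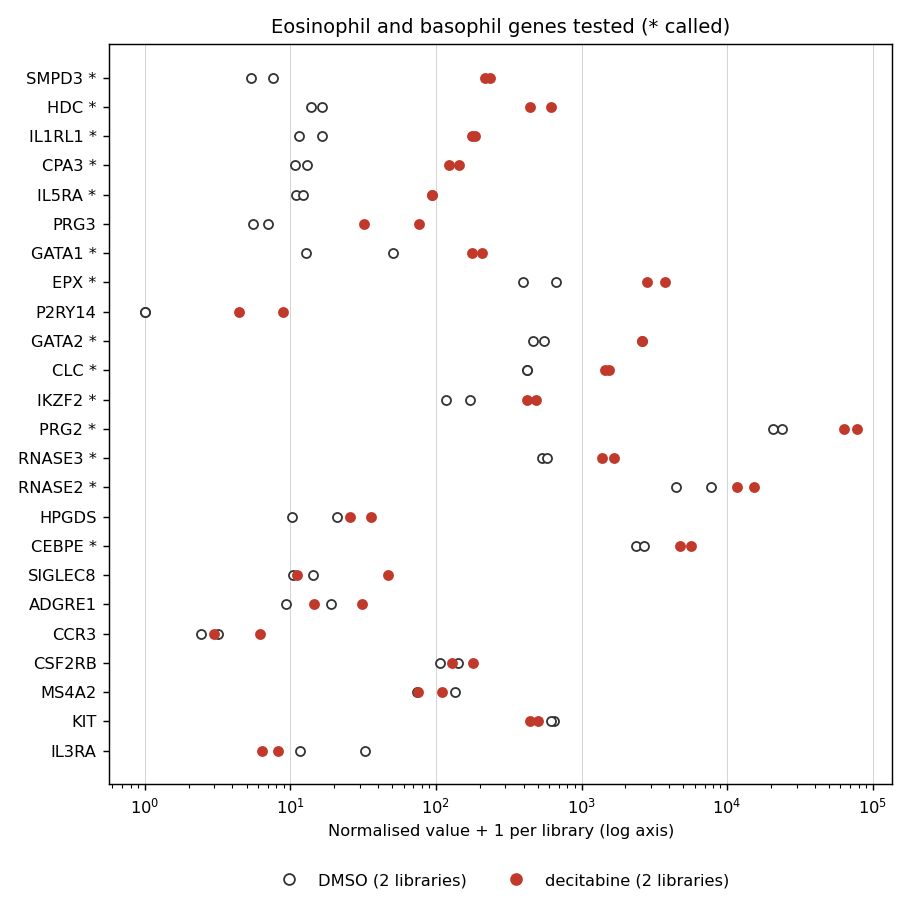
Normalised value + 1 in each library (log axis) for the 24 tested eosinophil and basophil genes, ordered by log2 fold change, open circles for the 2 DMSO and filled circles for the 2 decitabine libraries. The 14 called genes carry an asterisk. In each called gene both filled circles lie to the right of both open ones, while in KIT and IL3RA they lie to the left.

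Genes of neutrophil maturation had a smaller median, and their calls stand against 1.74% higher over all genes. Of 45 neutrophil maturation genes tested, 11 were called higher and none lower, with a median of 0.60, and the count was 2 without either decitabine library, 4 without DMSO replicate 2 and 6 without DMSO replicate 1. MMP9, the gelatinase of tertiary granules, read 10.6 and 7.55 in DMSO and 76.9 and 102 in decitabine (3.17 ± 0.33, adjusted p = 0.00153) and was the 1 member that kept its call without each library. CYBB, the oxidase subunit that makes superoxide, rose from 6174 and 5306 to 10213 and 10521 (0.86 ± 0.13, adjusted p = 0.0122), a small change with libraries well apart. MMP25, a membrane protease of neutrophils, and ORM1, an acute phase protein, changed by 1.69 ± 0.24 and 1.88 ± 0.26. ORM1 has a near-identical neighbour, ORM2, so its level is uncertain.

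The azurophil granule list gave 8 higher and 0 lower genes of 29, with a median of 0.31 and between 1 and 6 calls without 1 of the libraries. MPO and ELANE were not called, while CTSG, cathepsin G, rose from 4468 and 3016 to 6653 and 8546 (1.04 ± 0.21, adjusted p = 0.0406) and PRSS57, a serine protease of the same granules, from 302 and 307 to 1231 and 1383 (2.10 ± 0.33, adjusted p = 0.0154). HGF, hepatocyte growth factor, which neutrophil precursors store, rose from 361 and 366 to 1165 and 1404 (1.81 ± 0.21, adjusted p = 0.00279) and kept its call without each library. CTSG and PRSS57 did not keep theirs. Over all genes tested, 1.74% were called higher.

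Monocyte and macrophage genes moved in both directions, and their calls stand against 1.74% higher and 0.405% lower over all genes. Of 48 tested, 5 were called higher and 1 lower, with a median of 0.58, and without decitabine replicate 1 none was called (5 were called higher without DMSO replicate 1, and 1 without DMSO replicate 2 or decitabine replicate 2). LGALS3, galectin-3, rose from 111 and 122 to 402 and 351 (1.68 ± 0.21, adjusted p = 0.00422). CCR2, the chemokine receptor of inflammatory monocytes, fell from 457 and 451 to 134 and 146 (-1.69 ± 0.23, adjusted p = 0.007). Its DMSO libraries nearly coincided and its treated libraries lay together far below them, although the call was lost without DMSO replicate 2 or either decitabine library (highest adjusted p = 0.0622).

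Among chemokines and cytokines, 4 of 49 were called higher and 1, CCR2, lower, against 1.74% and 0.405% over all genes. IL32, a cytokine of T cells and other blood cells, read 13.4 and 11.9 against 161 and 273 (3.96 ± 0.42, adjusted p = 0.00173). CCL5, a chemokine that attracts T cells and eosinophils, rose from 699 and 800.0 to 1553 and 1859 (1.18 ± 0.16, adjusted p = 0.00581). CCL3, a chemokine of macrophages, read 9.13 and 3.04 against 56.9 and 63.7. IL32 was the 1 member whose call held without each of the 4 libraries, and the higher count was 1 without decitabine replicate 2 and 2 without decitabine replicate 1 or DMSO replicate 2.

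Transcripts named for lymphocytes also rose. TRAC, the constant region of the T cell receptor alpha chain (chr14:22547506-22552154), read 45.4 and 28.7 in DMSO and 442 and 422 in decitabine (3.54 ± 0.27, adjusted p = 3.59e-04). GNLY, granulysin of cytotoxic lymphocytes, read 4.53 and 0 against 151 and 218 (adjusted p = 0.00271, and 0.0501 without decitabine replicate 2). These were the 2 called of 11 lymphoid markers tested, out of 34 listed, against 1.74% called higher over all genes. GNLY had a DMSO mean under 10 and passed the filter only through other libraries, so the count cannot be read plainly against that share. The list median was 1.69 and its summed level 1608 and 1723 in DMSO against 2442 and 2426 in decitabine. Defining T and B cell markers were at or near 0: CD5, TRBC2, MS4A1, IGHM and IGKC were listed at 0 in all 4 libraries, CD3E read 3.03 and 1.51 against 9.44 and 18.7, and CD2 at most 2.46. CD79A, of the B cell receptor, read 25.7 and 25.7 against 91.7 and 78.98 and was not called (adjusted p = 0.157). LAT, TRDC and CD52, which were named after their values were seen, rose too. LAT, an adaptor of T cell and mast cell receptors, read 76.6 and 95.1 against 471 and 510.1, TRDC, the delta chain constant region, 9.08 and 9.06 against 191 and 212, and CD52, a surface glycoprotein, 173 and 112 against 787 and 939. The part of lymphoid transcripts in other results was not tested.

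Markers of other tissues were few. Of 10 neuronal markers tested, 1 was called, against 2.14% called over all genes. It was NRCAM, a cell adhesion molecule, which read 0.780 and 1.56 against 65.1 and 163 (5.61 ± 0.63, adjusted p = 0.00253). The summed neuronal level was 2133 and 2304 in DMSO and 1794 and 2073 in decitabine, and STMN2, GAP43 and NEFL were listed at 0 in the 4 libraries. None of 8 stromal, endothelial and epithelial markers was called by limma (1 at an unadjusted p under 0.05), with sums of 1416 and 979.6 against 1443 and 1712, and COL3A1, VWF and CDH5 were at 0. COL14A1, a fibril-associated collagen on chromosome 8 that is counted with matrix genes, read 0.426 and 0 in the controls and 638 and 642 in the treated libraries. This gave the largest log2 fold change of all called genes (9.07 ± 0.76, adjusted p = 5.44e-04), a size that depends on the added 1 because the controls were near 0. It was the 1 called gene of 35 extracellular matrix genes tested, close to the 2.14% called over all genes.

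The erythroid and megakaryocyte list depended on 1 control library. Its median was 0.85, with 24 of 27 log2 fold changes positive, but 1 gene, GATA1, was called, against 2.14% called over all genes. In DMSO replicate 2, 23 of the 27 were below DMSO replicate 1 and 13 were under 0.333 of it, against 47.2% and 5.58% of all genes tested. HBG2, a fetal haemoglobin chain, read 816 and 158 in DMSO and 569 and 700.5 in decitabine (0.81 ± 0.71, adjusted p = 0.59), so the treated libraries lay between the 2 controls. GYPB, a red cell surface glycoprotein, read 828 and 182 in DMSO and 817 and 560.2 in decitabine, again between the controls. The median was 1.89 without DMSO replicate 1 and 0.09 without DMSO replicate 2.

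Homeobox and other developmental transcription factors shared that trait. Their higher calls, 2 of 52 tested, stand against 1.74% over all genes. Of 52 tested, 47 had positive log2 fold changes with a median of 1.22, which fell to 0.45 without DMSO replicate 2 and was 1.94 without DMSO replicate 1; 41 of the 52 were lower in DMSO replicate 2 than in DMSO replicate 1, and 22 were under 0.333 of it. Without DMSO replicate 1 the count of called genes was 6 in place of 2. The 2 kept their calls without each of the 4 libraries. OTP, a homeobox factor of the hypothalamus (chr5:77628712-77639688), read 0.637 and 0 in DMSO and 294 and 179 in decitabine (7.49 ± 0.72, adjusted p = 9.33e-04). PITX1, a homeobox factor of hindlimb and pituitary, was abundant at 1279 and 1130.1 and rose to 2818 and 3082 (1.29 ± 0.14, adjusted p = 0.00173). Among 28 stem and progenitor genes, 3 were called higher (GATA2, IKZF2 and TRIB2), against 1.74% over all genes. Of these, GATA2 kept its call.

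**Figure D4:**
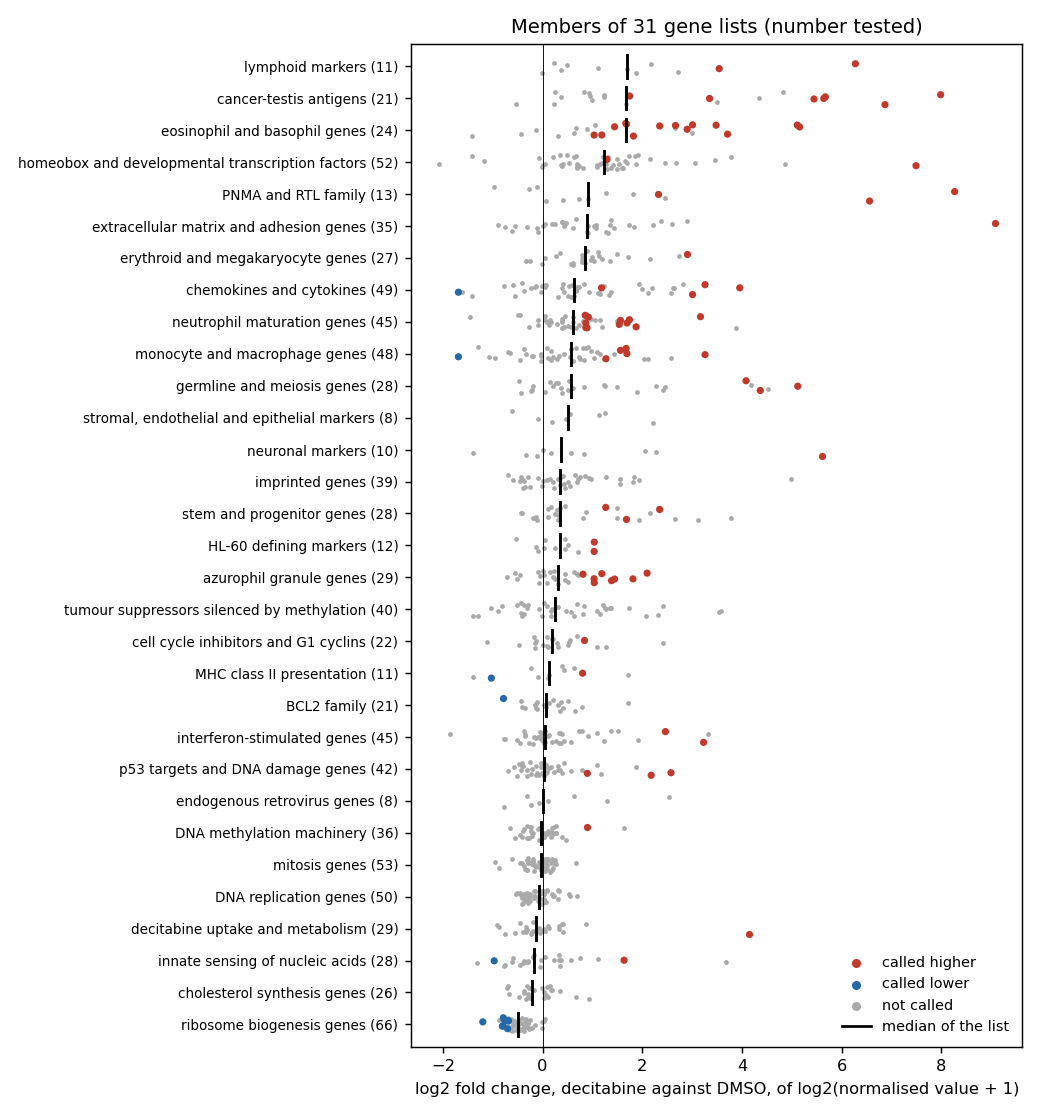
Log2 fold change (decitabine against DMSO, of log2 normalised value + 1; x axis) of each tested member of the gene lists shown, ordered by list median (black bar), with called members in red (higher) or blue (lower). The eosinophil and basophil list has 14 red points of 24, and the ribosome biogenesis list lies almost wholly left of 0 with 8 blue points of 66.

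An interferon response is a reported effect of this drug class, tied to repeats that methylation keeps silent. Among interferon-stimulated genes, 2 of 45 rose (against 1.74% higher over all genes) and none fell, with a median of 0.06 that ran from -0.03 to 0.16 without 1 of the 4 libraries. GBP2, a guanylate-binding protein, read 49.03 and 52.3 against 228 and 354 (2.47 ± 0.26, adjusted p = 0.00173), and LGALS3BP, a secreted galectin ligand, 9.08 and 6.04 against 74.2 and 82.1. LGALS3BP lost its call without DMSO replicate 2 (adjusted p = 0.131) and without either decitabine library (0.149 and 0.153), fits in which 1 gene of the list was called. Of 28 genes of nucleic acid sensing, TLR9, the sensor of unmethylated CG DNA, rose from 43.9 and 58.9 to 159 and 161 and CGAS, the sensor of cytosolic DNA, fell from 690.4 and 596 to 319 and 335 (-0.97 ± 0.20, adjusted p = 0.0439). These were the 2 calls of that list, against 2.14% called over all genes, and both were lost whichever of the 4 libraries was left out. None of 8 tested endogenous retrovirus genes was called by limma (2 higher and 1 lower at an unadjusted p under 0.05), a set that covers named genes and not repeats.

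Of 11 genes tested for antigen presentation by class II molecules, 1 was called higher and 1 lower, against 1.74% and 0.405% over all genes. IFI30, a lysosomal thiol reductase that unfolds antigens, rose from 1364 and 1436 to 2339 and 2552 (0.80 ± 0.15, adjusted p = 0.0291), a call that no fit without 1 of the 4 libraries kept (highest adjusted p = 0.145). CD74, the invariant chain, fell from 1163 and 1607 to 666 and 675 (-1.03 ± 0.20, adjusted p = 0.0323), a call lost without DMSO replicate 2 (adjusted p = 0.156) and without either decitabine library.

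The enzymes the drug acts on did not pass the test at the RNA level. DNMT1, the maintenance methyltransferase, read 13815 and 11548 in DMSO and 13058 and 9427 in decitabine (-0.19 ± 0.22, adjusted p = 0.704). The de novo enzymes DNMT3A and DNMT3B had log2 fold changes of 0.18 ± 0.25 and 0.08 ± 0.37, and UHRF1, the partner of DNMT1, -0.23 ± 0.17. For DNMT1 and DNMT3A the treated libraries overlapped the control range. Of the TET dioxygenases that oxidise methylcytosine, TET2 read 1983 and 2339 against 2872 and 3135 (0.48 ± 0.16, adjusted p = 0.161), TET1 had -0.26 ± 0.27 and TET3 -0.08 ± 0.19. Of 36 genes of the methylation machinery 1 was called, close to the 2.14% called over all genes tested. It was GADD45A, a stress gene tied to demethylation, which rose from 481 and 477 to 835 and 956 (0.90 ± 0.17, adjusted p = 0.0303). No fit without 1 of the 4 libraries kept that call.

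Decitabine is activated by DCK and destroyed by CDA, while SAMHD1 cleaves its triphosphate. CDA came closest to the threshold, with 379 and 471 in DMSO and 705 and 844 in decitabine (0.87 ± 0.19, adjusted p = 0.0501). DCK read 511 and 506 against 497 and 397 (-0.19 ± 0.20) and SAMHD1 2767 and 4865 against 2293 and 3386 (-0.40 ± 0.27). The groups were apart for CDA and DCK and overlapped for SAMHD1. Of 29 genes of uptake and metabolism 1 was called, close to the 2.14% called over all genes tested. It was NT5E, the ecto-5′-nucleotidase CD73, which read 0 and 1.30 against 26.8 and 24.97 (adjusted p = 0.0255). That call was lost without decitabine replicate 1, decitabine replicate 2 or DMSO replicate 1.

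Among genes with a DMSO mean of 200 or more, the 8 largest increases included 3 enzymes not described above, CYP1B1, ADAM8 and CES1, beside EPX and GATA2, the non-coding RNA genes AL713998.1 and LINC00599 and the pseudogene HMGN1P38. AL713998.1 had the largest of these changes, from 1114 and 321 to 10894 and 8463 (adjusted p = 0.00325, and 0.0568 without decitabine replicate 1). CYP1B1, a cytochrome P450 of steroid and xenobiotic oxidation (chr2:38066973-38109902), rose from 1805 and 2058 to 9443 and 10121 (2.34 ± 0.14, adjusted p = 1.17e-04). ADAM8, a membrane metalloprotease of granulocytes, rose from 439.6 and 361 to 2412 and 2410.1 (2.59 ± 0.17, adjusted p = 1.90e-04). CES1, a carboxylesterase that hydrolyses drugs and lipids, rose from 417 and 549 to 2306 and 2793 (2.41 ± 0.19, adjusted p = 4.72e-04). These 3 enzymes kept their calls without each library, and their treated libraries were at least 4-fold above the higher control. Metallothioneins, small proteins that bind zinc and copper, were noticed after the values were seen: MT2A rose from 4402 and 5898 to 15059 and 16477, MT1G from 659 and 907 to 2764 and 2821 and MT1H from 12.9 and 12.1 to 328 and 342. These genes are close copies of one another, so the share of each is uncertain.

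The lower genes included factors of ribosome production, which process rRNA and assemble subunits in the nucleolus. Of 66 ribosome biogenesis genes, 8 were called lower and none higher, against 0.405% lower over all genes. The list median was -0.49, 64 of the 66 had negative log2 fold changes and in 58 both treated libraries lay below both controls, a separation in that direction that 23.1% of all tested genes show. The summed level was 398378 and 455863 in DMSO against 298695 and 326718 in decitabine. GNL3L, a nucleolar GTPase (chrX:54530211-54561071), fell from 10295 and 10701 to 4377 and 4780.0 (-1.20 ± 0.14, adjusted p = 0.00271). RRP1B, a nucleolar regulator of rRNA processing, fell from 3948 and 4780.2 to 2431 and 2541, UTP20, of the small subunit processome, from 2174 and 2434 to 1289 and 1379, and RPF2, which assembles the 5S particle, from 4622 and 4816 to 2997 and 2877. GNL3L was the 1 member that kept its call without each of the 4 libraries: the list gave 1 call without DMSO replicate 2 or either decitabine library and 9 without DMSO replicate 1. Ribosomal protein transcripts made up 18.9% and 18.3% of the DMSO totals and 17.6% and 18.9% of the decitabine totals.

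Other lower genes were scattered in function. CACNA2D3, a calcium channel subunit, fell from 259 and 190.2 to 57.98 and 30.1 (-2.38 ± 0.48, adjusted p = 0.0401), and AFF3, a nuclear factor of lymphoid cells, from 703 and 727 to 221 and 363 (-1.33 ± 0.26). PPP2R1B, a scaffold of protein phosphatase 2A, fell from 995 and 1156 to 469.5 and 297. Each of these 3 calls was lost in at least 1 fit that left out a library. BID, a pro-death member of the BCL2 family, fell from 2002 and 2074 to 1154 and 1204 (-0.79 ± 0.15, adjusted p = 0.0295). It was the 1 call of 21 in its family, against 2.14% called over all genes, and was lost without any 1 of the 4 libraries.

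Genes of cell division did not pass the test. None of 50 DNA replication genes (median -0.08, 4 higher and 6 lower at an unadjusted p under 0.05) and none of 53 mitosis genes (median -0.03, 1 higher and 5 lower) was called by limma. Log2 fold changes ran from -0.53 to 0.69 in the first list and from -0.96 to 0.66 in the second. Of 42 p53 target and DNA damage genes 3 were called higher (GADD45A, TP53I3 and TP53INP1), against 1.74% over all genes, with a list median of 0.03. Each of these 3 calls was lost in at least 1 fit that left out a library. CCND3, cyclin D3, rose from 1701 and 1607 to 2506 and 3444 (0.83 ± 0.18, adjusted p = 0.0461). It was the 1 call of 22 cell cycle inhibitors and cyclins, against 2.14% called over all genes, and was lost without any 1 of the 4 libraries. No gene of cholesterol synthesis (26 tested, 4 lower at an unadjusted p under 0.05), no imprinted gene (39 tested, 6 higher and 2 lower) and none of 40 tumour suppressors known for silencing by methylation (11 higher and 7 lower) was called by limma.

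The drug step could also be read by setting the combination against RG3039 alone, whose means share no library with this comparison. Both contrasts take their spread from 1 estimate over all 8 libraries, so their calls are not independent. Of the 305 higher genes, 297 (97.4%) also had positive log2 fold changes there, against 51.4% of all genes tested, and 146 (47.9%) were called higher, against 1.49%. For the 228 of them with a DMSO mean of 10 or more, 223 were positive, against 49.9% of all genes in that class, and 104 were called higher, against 1.24%. The 77 with a DMSO mean under 10 belong to a class that passed the filter only through libraries other than DMSO. Of those 77, 74 were positive, against 71.4% of all genes in that class, and 42 were called higher, against 4.83%. Of the 71 lower genes, 64 (90.1%) were negative, against 48.6%, and 31 were called lower, against 0.787%. None of the 376 was called in the opposite direction. The medians were 1.38 and -0.62 in place of 2.01 and -0.88 for genes that were chosen on the first comparison. That contrast called 399 genes in all (2.28%), and 21 to 177 when 1 of its own 4 libraries was left out. In separate fits of 4 libraries each, a check chosen after the values were seen, decitabine against DMSO gave 99 higher genes (0.565%) and 6 lower (0.0342%). Of the 99, 95 (95.96%) were positive for the combination against RG3039 and 63 (63.6%) called higher, against 1.49% of all genes. The 6 lower genes were all negative there and none was called, against 0.439% of all genes. The 99 higher genes were not split by DMSO mean, so the shares over all genes may not be a like background for them.

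The step was called again for some genes and not for others, which is not a test of a difference between the steps. PNMA5 read 33.6 and 26.3 after RG3039 but 3079 and 3511 in the combination (log2 fold change 6.74, adjusted p = 4.23e-05), and HDC 8.80 and 17.1 against 923 and 1015 (6.18, adjusted p = 1.30e-04). In both genes the combination libraries stood clear above the RG3039 libraries. GNL3L read 3721 and 4107 against 3624 and 3128 (-0.22, adjusted p = 0.465), PITX1 4740.4 and 4924 against 5582 and 5675 (0.22, adjusted p = 0.45) and TDRD9 100.3 and 88.5 against 149 and 227 (0.96, adjusted p = 0.367). Those 3 kept their calls against DMSO without each library and did not pass the test here. In the interaction test described next, limma gave them adjusted p of 0.505, 0.505 and 0.591. Their RG3039 libraries already stood away from DMSO, which read 10295 and 10701 for GNL3L, 1279 and 1130 for PITX1 and 2.14 and 1.22 for TDRD9.

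Whether the step itself differed was tested as an interaction. No gene was called by limma (smallest adjusted p = 0.124), and 1014 genes (5.78%) had an unadjusted p under 0.05. Of these, 120 were among the 376. Those 376 were chosen on a difference that the interaction also contains, so the 120 cannot be read against the 5.78%. After adjustment, no difference between the decitabine steps was detectable at 2 libraries a group. Of the eosinophil and basophil list, 7 of 24 were called higher with the combination against RG3039 and the median was 1.39. The ribosome biogenesis list gave 17 lower calls of 66 there, with a median of -0.70.

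**Figure D5:**
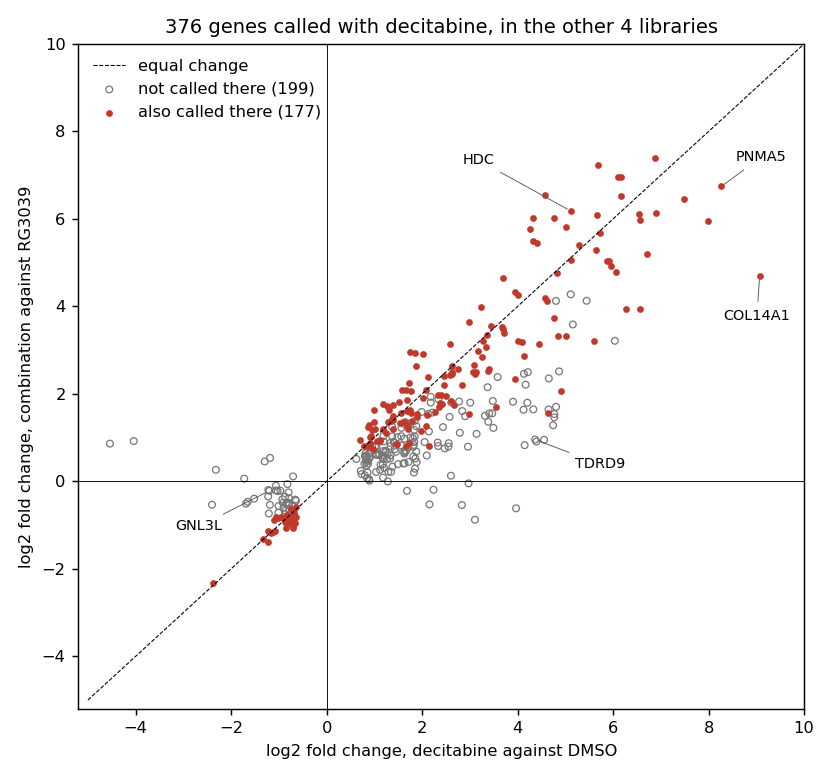
Log2 fold change of decitabine against DMSO (x axis) and of the combination against RG3039 (y axis) for the 376 genes called in the first; the group means share no library, the estimate of spread is common to both. Filled points mark the 177 genes also called in the second, open points the other 199, and the dashed line equal change. Most points lie on the same side of 0 on both axes, with many higher genes under the dashed line.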

How the data were processed

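The deposited values are read counts per gene that the authors scaled between libraries, a coverage-type signal and not whole counts; DESeq2, limma, STAR, featureCounts and Salmon 1.2.1 and the genome hg38 are named per the submitters' processing notes, and the step that made the values is not given in the sources. Low values were whole multiples of 1 read in 97.5% to 98.1% of single-transcript genes, within a tolerance of 0.02, but in 74.4% to 80.8% of all, so no count test was run. Here, log2(value + 1) of the 17534 genes with a mean of 10 or more went into a limma fit (limma 3.58.1, R 4.3.3; 4 group means, variance trend, two-sided; residual degrees of freedom 4, prior 5.51, median SE 0.322). On simulated data for this comparison (17534 genes, 50 changed per size) 22% of 2-fold, 64% of 4-fold and 74% of 8-fold increases and 58% of 4-fold decreases were recovered, with 4.39% false calls. The simulated noise was independent between libraries and drawn from the spread of these data, with no library that stood apart. The 4.39% therefore need not hold for the 376 calls.

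Columns were matched to samples by name. The gene lists and the comparison were chosen with earlier results of these data known. Genes are named by a rule: of called genes with a mean of 20 or more and groups that do not overlap, the 15 largest increases and 10 largest decreases, the 8 largest of each at a DMSO mean of 200 or more, the 4 smallest p in each of 33 lists, and 10 genes of methylation and drug metabolism. Uncalled list members and genes said to be named after their values were seen stand outside it, as do CLC, CPA3, IL5RA, IL1RL1, RNASE2, VCX and PAGE2B, which were added as called members of their lists after their values were seen. Of the 1377 list symbols, 1364 were in the table. The alternatives were other pseudocounts (0.5 and 8), filters and scalings, no trend, robust estimates, only the 2 groups, a replicate block and each library left out. Results for some genes that the rule takes are not reported here.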

Additional observations from a re-analysis of the deposited data

How the results depend on the processing

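Main counts were 376 called genes, 305 higher and 71 lower, 399 for the combination against RG3039 and 0 for the interaction. Pseudocounts of 0.5 and 8, a mean of 50 or more, quantile and upper-quartile scaling and robust estimates gave 351, 401, 333, 328, 454 and 449 called genes. Without a filter on low values the counts were 225 called, 202 higher, 23 lower and 213 for the combination, with more genes tested. Without the mean-variance trend they were 210, 197, 13 and 147. With only the 2 groups compared, which leaves fewer residual degrees of freedom, they were 105, 99 and 6, and a fit of only RG3039 and the combination, added after the values were seen, gave 339. Lower calls were 44 under quantile scaling and 110 with robust estimates. The cause of these differences in count was not tested.

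Leaving out 1 of the 8 libraries gave 79 to 495 called, 71 to 337 higher, 4 to 158 lower, 21 to 454 for the combination and 0 to 2 for the interaction, where 1 gene was called without DMSO replicate 1, 2 without DMSO replicate 2, 2 without RG3039 replicate 1 and 1 without combination replicate 2. Among the genes named by the rule, 81 were called, of which 26 stayed called whichever of the 4 libraries compared was left out. None of those 81 changed direction in any alternative. Of uncalled genes, the log2 fold changes ran over the fits without 1 library from -0.42 to 0.048 for DNMT1 (positive without decitabine replicate 2), from -0.16 to 0.52 for DNMT3A (negative without decitabine replicate 1), from -0.16 to 0.33 for DNMT3B (negative without decitabine replicate 2, and -0.14 without DMSO replicate 2), from -0.80 to 0.0099 for SAMHD1 (positive without DMSO replicate 2) and from -0.26 to 0.11 for TET3 (positive without decitabine replicate 2). DNMT3B was -0.18 under quantile scaling and TET3 0.015 under upper-quartile scaling.

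The labels tie samples of the same number by that number only. Over all genes tested, the correlation of deviations between DMSO replicate 1 and decitabine replicate 1 was 0.05. Same-numbered pairs over the groups ranged from -0.08 to 0.16. A correlation over all genes can miss a difference between replicates that only some genes share, so a pairing is not excluded. With a replicate block, 525 genes were called (364 higher and 161 lower), 688 for the combination and 0 for the interaction. With 2 libraries a group, 22% of simulated 2-fold increases were recovered. The median SE of the log2 fold change was 0.69 for the 6601 genes with a mean of 10 to under 100 and 0.17 for the 4285 genes with a mean of 1000 or more.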
